A study of Homo sapiens with 6 samples.

Results

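Cholesterol and fatty acid synthesis was followed through 32 genes after UBE2S was knocked down in A375 cells, a long-established line from a human melanoma. The members were chosen by name, as the enzymes of both pathways with the genes that control them and carry their products. They were chosen with earlier results of these data known. A gene was measured where a probe set listed it as its only symbol. Of the 32 genes, 30 were measured so, out of 18132 genes measured in the series. CYP51A1, the sterol demethylase, was read only by 2 probe sets that list a further gene, and FDFT1 was not analysed here. The knockdown group held 3 arrays of cells that received a short hairpin RNA against UBE2S by lentivirus, and the control group held 3 arrays of control A375 cells. The sources used here state neither the vector of the control cells nor the number of hairpin sequences. The labels call the arrays of a group biological replicates and name no day, passage or batch. UBE2S encodes a ubiquitin-conjugating enzyme of the anaphase-promoting complex. All values are log2 expression, and every probe set is expressed relative to its own median over the 6 arrays, so that 0 is that median and no absolute level is given.

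Cells build cholesterol and fatty acids from the same precursor, acetyl-CoA. The mevalonate pathway turns acetyl-CoA into isoprenoid units, which are joined to squalene and closed into sterols, while acetyl-CoA carboxylase and fatty acid synthase make palmitate, which elongases lengthen and desaturases furnish with double bonds. Most of these enzymes are controlled together by the sterol regulatory element-binding proteins (SREBPs), membrane-bound transcription factors that the escort protein SCAP carries out of the endoplasmic reticulum when sterols are scarce and that INSIG proteins hold back when sterols are plentiful.

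The promoters of some regulators and end enzymes hold different matches to the sequences through which SREBPs and their partner NF-Y are known to act. The windows shown are those of INSIG1, SCD and SREBF2, which were lower in knockdown cells, and of INSIG2 and ELOVL6, which were higher. Each runs from 250 bases before to 50 bases after an annotated transcript start of RefSeq, build GRCh38.p14, and is written on the gene's strand. Capitals mark the letters CACNCCAC, the core of a sterol regulatory element, and CCAAT, the NF-Y box, on either strand.
INSIG1, chr7:155297628-155297927, plus strand: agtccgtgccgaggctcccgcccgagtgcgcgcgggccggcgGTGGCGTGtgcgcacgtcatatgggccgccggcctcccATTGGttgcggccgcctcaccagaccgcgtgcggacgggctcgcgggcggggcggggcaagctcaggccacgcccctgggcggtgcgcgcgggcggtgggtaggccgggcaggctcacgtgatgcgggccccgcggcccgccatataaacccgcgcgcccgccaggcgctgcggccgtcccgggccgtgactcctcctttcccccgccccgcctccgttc
SCD, chr10:100346983-100347282, plus strand: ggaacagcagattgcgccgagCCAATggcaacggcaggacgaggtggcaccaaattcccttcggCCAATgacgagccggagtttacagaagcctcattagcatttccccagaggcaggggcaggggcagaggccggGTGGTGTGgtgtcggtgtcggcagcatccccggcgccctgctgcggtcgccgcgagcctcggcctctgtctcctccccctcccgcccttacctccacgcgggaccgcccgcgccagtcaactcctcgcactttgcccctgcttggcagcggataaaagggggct
SREBF2, chr22:41832855-41833154, plus strand: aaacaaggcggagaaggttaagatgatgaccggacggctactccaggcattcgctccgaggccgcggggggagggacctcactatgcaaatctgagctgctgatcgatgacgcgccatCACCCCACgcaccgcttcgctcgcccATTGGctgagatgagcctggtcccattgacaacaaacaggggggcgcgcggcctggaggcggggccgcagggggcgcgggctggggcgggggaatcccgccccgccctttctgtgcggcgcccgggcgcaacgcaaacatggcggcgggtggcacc
INSIG2, chr2:118088221-118088520, plus strand: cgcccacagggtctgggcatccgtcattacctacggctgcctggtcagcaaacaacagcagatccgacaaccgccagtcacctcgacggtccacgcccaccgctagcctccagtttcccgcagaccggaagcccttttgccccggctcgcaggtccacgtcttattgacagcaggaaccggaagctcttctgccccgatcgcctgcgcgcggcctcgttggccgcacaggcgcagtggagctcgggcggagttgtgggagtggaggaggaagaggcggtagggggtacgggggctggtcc
ELOVL6, chr4:110198566-110198865, minus strand: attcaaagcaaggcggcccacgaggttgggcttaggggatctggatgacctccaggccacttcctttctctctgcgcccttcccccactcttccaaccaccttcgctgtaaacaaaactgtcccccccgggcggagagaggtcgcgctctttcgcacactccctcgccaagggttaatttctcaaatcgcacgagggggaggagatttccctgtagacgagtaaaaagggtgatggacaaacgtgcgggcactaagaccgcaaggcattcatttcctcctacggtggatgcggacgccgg
The windows of INSIG1, SCD and SREBF2 each held 1 match to the element core, beginning 208, 114 and 132 bases upstream of the start. They also held CCAAT boxes, 1 in INSIG1, 2 in SCD and 1 in SREBF2. The windows of INSIG2 and ELOVL6 held neither set of letters. These genes were picked by hand, and other members differ. SC5D rose with both a core and a CCAAT box, and TM7SF2 and ACLY rose with a CCAAT box. SCAP and FADS1 fell with neither. Whether the matches go with the direction of change was not tested.

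The promoter windows were searched for 4 short sequences on both strands. Of the 30 measured members, 27 had at least 1 window in the RefSeq table. A CCAAT box was found for 20 of these 27 genes (74.1%), against 42.4% of 14425 measured genes with a window. The element core CACNCCAC was found for 7 (25.9%) against 8.03%, and TCACNCCAC, which contains the core and 1 base more, for 1, SREBF2, against 1.55%. The GC box GGGCGG, bound by SP1, was found for 26 (96.3%) against 65.7%. Members had 1.37 windows per gene on average and measured genes 1.41. Over single windows of 300 bases in the whole table, CCAAT stood in 34.6%, the core in 5.87%, the longer form in 1.13% and the GC box in 45%.

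UBE2S stood at -1.13, -1.05 and -1.01 in the knockdown arrays, against 1.06, 1.01 and 1.01 in the control arrays, a difference of -2.09 (SE 0.043) and an adjusted p of 9.23e-08 in limma. The 1 probe set of UBE2S is of a kind that the array marks as shared between transcripts. Array medians over all probe sets lay between -0.0089 and 0.0037. Spike-in transcripts added at hybridization averaged 0.093 in knockdown arrays and -0.075 in control arrays, a difference of 0.17, and poly-A spike-ins 0.051 in knockdown and -0.047 in control arrays, a difference of 0.098, both without overlap. The 3' minus 5' difference of the centred control probe sets averaged 0.095 in knockdown and -0.095 in control arrays for ACTB, with no overlap. For GAPDH it averaged 0.0043 in knockdown and -0.018 in control arrays, with overlap. After centring, only the gap between the groups can be read, 0.19 for ACTB, and not the sign within a group. The part of the spike-in and 3' minus 5' differences in the small changes described here was not tested. Of 7 measured melanocyte markers, S100B (1.09) and TYRP1 (0.22) rose, MITF (-0.72) fell, and PMEL, MLANA, TYR and SOX10 did not pass. Of 6 fibroblast markers LUM (0.93) rose and DCN (-0.23) fell, of 6 keratinocyte and epithelial markers KRT10 (0.22) rose and KRT14 (-0.46) fell, and of 5 blood markers HBB (0.41) rose. Their part in the results was not tested. The p-values measure the spread between these replicates only.

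More of the lipid synthesis genes were lower than higher in knockdown cells. Of the 30 measured genes, 15 fell and 6 rose, and 9 did not pass the test, which was an adjusted p under 0.05 in limma over all genes. The share that changed was 70%, where the background over all 18132 genes was 40.1%. Since the members were chosen with earlier results of these data known, these shares describe them and are not a test. Falls made up 50% of the members against a background of 18.6%, whereas rises made up 20% against 21.4%, which is close to the background. Knockdown and control arrays did not overlap for 24 of the 30 genes, or 80%, with a background of 50%. The median change of the members was -0.17 on the log2 scale, against -0.0038 over all genes, and the median absolute change was 0.26 against 0.11. Without shared probe sets the median of the 25 members left was -0.094, with 11 falls (44%) and 4 rises (16%) where the background was 16.6% and 20%. The member median was -0.34 with hybridization and -0.27 with poly-A spike-in centring, which move the median of all genes to -0.17 and -0.10. Most changes were small, and 1 member, ELOVL6, passed and changed by at least 2-fold, as did 1.06% of all genes. Fewer cells in a given state and less RNA per cell cannot be told apart in these bulk samples.

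**Figure D1:**
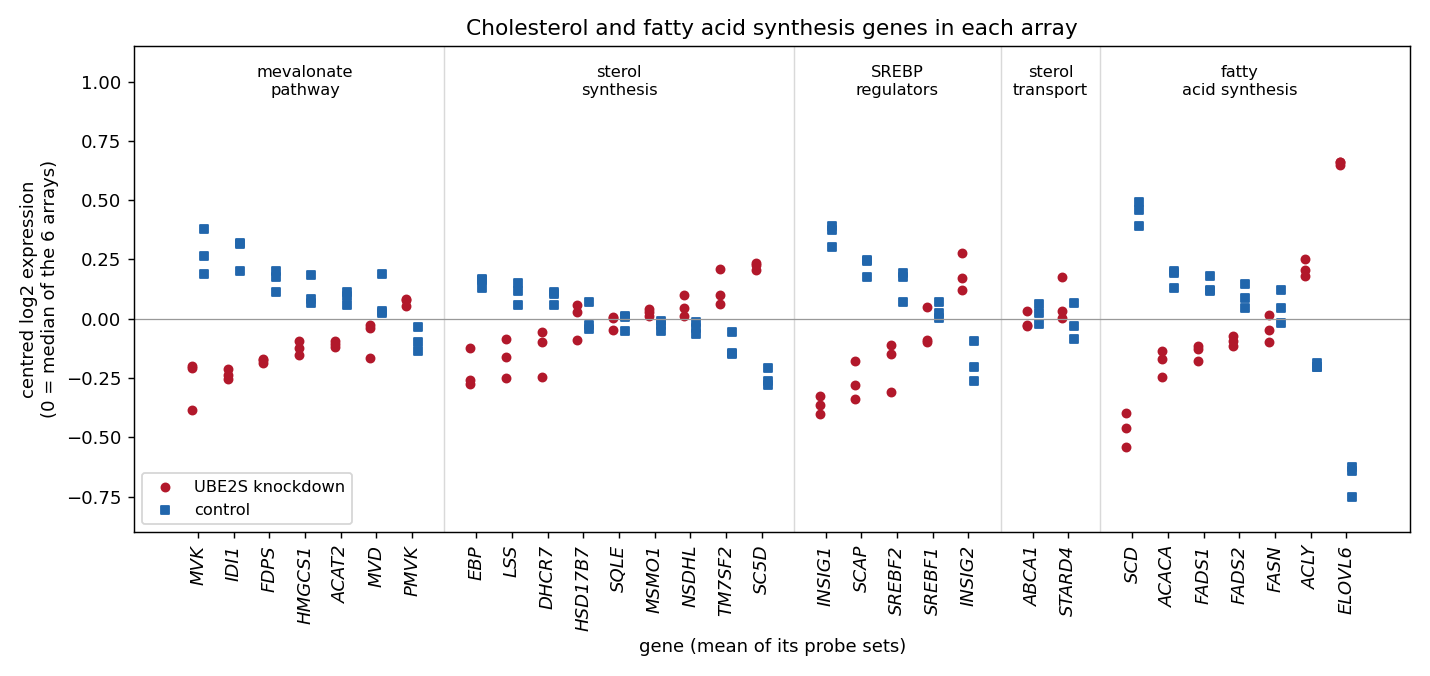
Centred log2 expression (vertical axis, 0 is the median of the 6 arrays) of the 30 measured genes (horizontal axis, grouped by role). Each red circle is 1 knockdown array and each blue square 1 control array; ELOVL6 shows the widest gap, near 0.66 in knockdown and -0.67 in control arrays, and SCD and INSIG1 the widest gaps in the other direction.

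Most genes of the mevalonate pathway were lower in knockdown cells. Of its 7 genes, all measured, 5 fell (71.4%) and 1 rose (14.3%), with a median of -0.23, where the background was 18.6% and 21.4%. Mevalonate kinase, MVK, stood at -0.20, -0.39 and -0.21 in knockdown arrays, against 0.38, 0.19 and 0.27 in control arrays. Its change of -0.54 (SE 0.067), or 1.45-fold lower, was the largest of the group (adjusted p = 3.42e-04 in limma). The isomerase IDI1, which interconverts the isoprenoid building blocks, stood at -0.21, -0.25 and -0.24 in knockdown arrays, against 0.32, 0.31 and 0.20 in control arrays. It fell by 0.51 (SE 0.043), and its 2 probe sets gave -0.52 and -0.51. In both genes every knockdown array lay below every control array.

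The prenyltransferase FDPS, which builds farnesyl diphosphate, fell by 0.34 (SE 0.038), with means of -0.18 ± 0.0082 in knockdown and 0.16 ± 0.046 in control cells (SD, n = 3 each). HMGCS1, the synthase that makes HMG-CoA, fell by 0.23 (SE 0.044), and the thiolase ACAT2, which supplies its substrate, by 0.20 (SE 0.035). The probe sets of HMGCS1 disagreed in size: 1 that the array marks as shared gave -0.37 and passed, and the other gave -0.094 and did not. Without shared probe sets HMGCS1 therefore did not pass (-0.094, adjusted p = 0.185 in limma). The decarboxylase MVD gave -0.16 (SE 0.059, adjusted p = 0.0675 in limma) and did not pass, although its groups did not overlap. It passed with array weights (-0.21, adjusted p = 0.0222 in limma) and with the replicate number as a block (-0.16, adjusted p = 0.0489 in limma). MVD also passed with poly-A spike-in centring (-0.26, adjusted p = 0.00798 in limma) and with hybridization spike-in centring (-0.33, adjusted p = 0.00360 in limma).

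PMVK, which acts between the kinase and the decarboxylase, ran the other way. It stood at 0.053, 0.078 and 0.083 in knockdown arrays, against -0.033, -0.14 and -0.10 in control arrays, a rise of 0.16 (SE 0.039, adjusted p = 0.0120 in limma). The groups did not overlap, and the hybridization spike-in difference is 0.17. The rise was lost with poly-A spike-in centring (0.063) and turned to -0.0066 with hybridization spike-in centring.

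From squalene onward the genes were mixed. Of 9 measured sterol enzymes, 3 fell (33.3%), 2 rose (22.2%) and 4 did not pass, and the median was 0.00030. The background was 18.6% falls and 21.4% rises. The sterol isomerase EBP stood at -0.27, -0.26 and -0.12 in knockdown arrays, against 0.17, 0.16 and 0.13 in control arrays, and fell by 0.37 (SE 0.048, adjusted p = 4.05e-04 in limma). Lanosterol synthase, LSS, which closes the sterol rings, fell by 0.27 (SE 0.050), and DHCR7, the reductase that ends a branch of the pathway, by 0.22 (SE 0.054). Knockdown replicate 1 was the lowest array for EBP, LSS and DHCR7. For LSS the 3 probe sets ranged from -0.51 to -0.13, and the smallest did not pass on its own.

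SC5D, the desaturase that acts shortly before DHCR7, was the clearest rise among the sterol enzymes. It stood at 0.21, 0.24 and 0.23 in knockdown arrays, against -0.26, -0.28 and -0.21 in control arrays. The difference of 0.47 (SE 0.036), or 1.39-fold, had an adjusted p of 2.71e-05 in limma, and all 4 of its probe sets rose, by between 0.39 and 0.52. TM7SF2, a sterol reductase, rose by 0.24 (SE 0.050), with 4 of 5 probe sets higher and the other at -0.031, a rise lost under either spike-in centring (0.14 with poly-A and 0.072 with hybridization spike-ins).

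SQLE, the epoxidase regarded as a rate-limiting step beyond mevalonate, gave a mean change of 0.00030 (SE 0.038, 95% interval -0.087 to 0.088). Its 4 probe sets did not run together, from -0.14 to 0.13, and the highest passed as a rise. With hybridization spike-in centring the gene stood at -0.17 (adjusted p = 0.0241 in limma). MSMO1 (0.055), NSDHL (0.092) and HSD17B7 (-0.00017), which remove or reduce groups on the early sterol ring, did not pass. MSMO1 passed when its brightest probe set alone was used (0.14, adjusted p = 0.0390 in limma). For MSMO1 and NSDHL the groups did not overlap, while for HSD17B7 and SQLE they did.

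**Figure D2:**
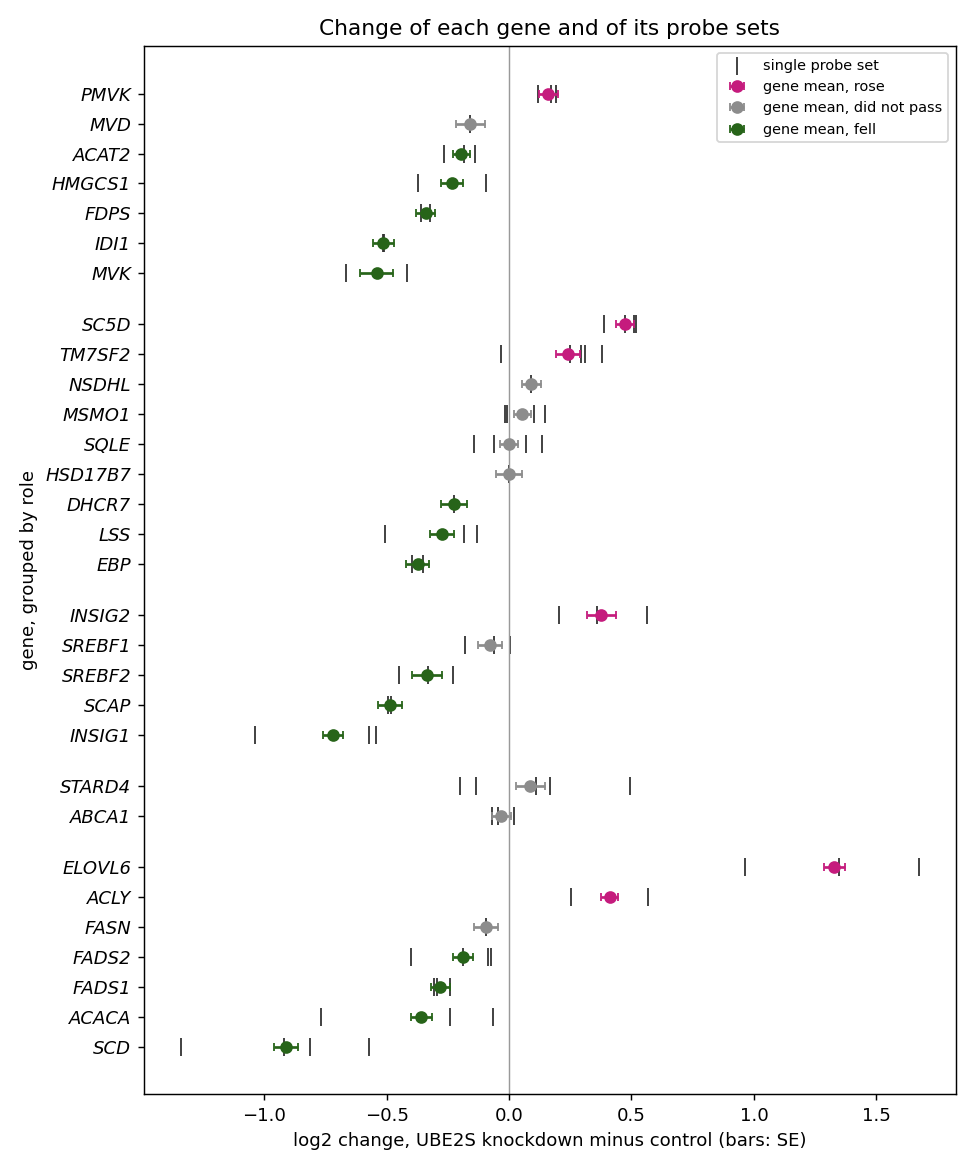
Log2 change, knockdown minus control (horizontal axis), of each gene (vertical axis, grouped by role from the mevalonate pathway at the top to fatty acid synthesis at the bottom). Circles with SE bars are the fitted gene means, coloured by whether the gene rose, fell or did not pass, and black ticks are single probe sets; the ticks of SQLE, STARD4, TM7SF2, MSMO1, SREBF1 and ABCA1 lie on both sides of 0.

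The machinery that senses sterols moved in opposite directions within a gene pair. INSIG1, which retains SCAP in the endoplasmic reticulum and is itself a textbook SREBP target, stood at -0.32, -0.36 and -0.40 in knockdown arrays, against 0.37, 0.39 and 0.30 in control arrays. It fell by 0.72 (SE 0.041), or 1.64-fold lower, with an adjusted p of 6.28e-06 in limma, and ranked 235 among the falls of all genes. Its probe sets gave -1.04, -0.57 and -0.54. INSIG2, the paralog with the same retaining function, stood at 0.12, 0.17 and 0.28 in knockdown arrays, against -0.26, -0.093 and -0.20 in control arrays. It rose by 0.38 (SE 0.058), or 1.30-fold, with an adjusted p of 0.00112 in limma, and its probe sets gave 0.56, 0.36 and 0.20. No array of one group lay within the range of the other for either gene. The INSIG1 window shown above held an element core and a CCAAT box. Neither the INSIG2 window shown nor the other INSIG2 window in the table, which overlaps it, held either. The SCAP window also held neither, and SCAP fell. Whether the matches go with the direction of change was not tested.

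SCAP stood at -0.34, -0.18 and -0.28 in knockdown arrays, against 0.24, 0.18 and 0.25 in control arrays, and fell by 0.49 (SE 0.049, adjusted p = 1.13e-04 in limma), with -0.48 and -0.49 in its 2 probe sets. SREBF2, which encodes the SREBP that mainly serves cholesterol genes, stood at -0.31, -0.15 and -0.11 in knockdown arrays, against 0.19, 0.17 and 0.072 in control arrays. It fell by 0.34 (SE 0.060, adjusted p = 0.00254 in limma), and all 3 of its probe sets fell. SREBF1, whose products include the isoform that mainly serves fatty acid genes, stood at -0.089, -0.098 and 0.051 in knockdown arrays, against 0.070, 0.026 and 0.0024 in control arrays. Its change of -0.078 (SE 0.049, 95% interval -0.19 to 0.036) did not pass, and the groups overlapped through knockdown replicate 3. Without that array it stood at -0.13 (adjusted p = 0.0477 in limma), and it passed under either spike-in centring (-0.18 with poly-A and -0.25 with hybridization spike-ins). The difference between the changes of SREBF2 and SREBF1 was not tested. These are transcript values, and the cleavage that activates SREBPs was not measured.

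Neither of the sterol carriers passed the test (0 of 2, in limma, and 0 at an unadjusted p under 0.05), where 40.1% of all genes changed. STARD4, a cytosolic sterol transfer protein under SREBP control, stood at 0.088 (SE 0.059), with 5 probe sets from -0.20 to 0.50, of which the highest, of the lowest signal class, passed. Taking the most variable probe set for each gene would thus call STARD4 a rise of 0.50 (adjusted p = 0.0251 in limma). ABCA1, the exporter that liver X receptors (LXRs) switch on when sterols accumulate, stood at -0.031 (SE 0.039, 95% interval -0.12 to 0.060). It passed as lower under either spike-in centring (-0.13 with poly-A and -0.20 with hybridization spike-ins).

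Fatty acid synthesis held the largest changes of the members, in opposite directions. Of 7 genes, all measured, 4 fell (57.1%) and 2 rose (28.6%), with changes from -0.91 to 1.33, where the background was 18.6% and 21.4%. ELOVL6, the elongase that lengthens palmitate, stood at 0.65, 0.66 and 0.66 in knockdown arrays, against -0.75, -0.62 and -0.64 in control arrays. It rose by 1.33 (SE 0.043), or 2.51-fold, with an adjusted p of 5.02e-07 in limma, and ranked 34 among all rises. Its probe sets gave 1.67, 1.35 and 0.96, in order of falling signal class. SCD, the desaturase that places the first double bond in stearate and palmitate, stood at -0.54, -0.46 and -0.40 in knockdown arrays, against 0.49, 0.46 and 0.39 in control arrays. It fell by 0.91 (SE 0.049), or 1.88-fold lower, with an adjusted p of 4.76e-06 in limma, and ranked 125 among all falls. Its 4 probe sets all fell, from -1.34 in the one of the highest signal class to -0.57, and all 4 are of the shared kinds. The gap between the groups was wider than the range within either group for both genes.

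Upstream of these enzymes, ACLY, which makes cytosolic acetyl-CoA from citrate, stood at 0.18, 0.21 and 0.25 in knockdown arrays, against -0.20, -0.19 and -0.20 in control arrays. It rose by 0.41 (SE 0.036), or 1.33-fold, with an adjusted p of 5.04e-05 in limma. ACACA, the carboxylase that commits acetyl-CoA to fatty acids, stood at -0.24, -0.13 and -0.17 in knockdown arrays, against 0.13, 0.20 and 0.19 in control arrays, and fell by 0.36 (SE 0.043). Its 3 probe sets gave -0.77, -0.24 and -0.065, and the last did not pass. FASN, the synthase itself, is read by 1 probe set and stood at -0.094 (SE 0.049, 95% interval -0.21 to 0.020), with overlapping groups. It passed as lower under either spike-in centring (-0.19 with poly-A and -0.26 with hybridization spike-ins). The desaturases of polyunsaturated fatty acids, FADS1 and FADS2, fell by 0.28 (SE 0.038) and 0.19 (SE 0.039). All 3 probe sets of FADS1 fell, but 1 of 4 of FADS2 did so on its own, and FADS2 did not pass without shared probe sets (-0.081, adjusted p = 0.193 in limma).

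At the level of single probe sets, the 30 genes were read by 82, of which 33 fell (40.2%) and 20 rose (24.4%). Over all 49293 probe sets, 17.4% fell and 19.5% rose, and 36.9% changed in either direction. Of the 25 genes with several probe sets, 19 had all of them on the same side of 0. The rounding of the deposited values places each probe set in a coarse class of signal before centring, on the log2 scale between 8 and 16 (high), 4 and 8 (middle) or below 4 (low). Members had 29 probe sets in the high class, 49 in the middle class and 4 in the low class. The low class thus held 4.88% of the members' probe sets and 18.9% of all. Leaving it out changed no member's call, but it raised the background share. Without it 7361 of 15705 genes changed and 3436 fell, against 7266 of 18132 changed and 3378 fallen with it. FDPS, TM7SF2, HSD17B7, ACLY and SCD were read by shared probe sets alone, so 25 members could be tested without them, of which 60% changed, against 36.5% of all genes so tested. Probe sets with plain IDs alone left SQLE, MSMO1 and ABCA1, of which 0 changed in limma (0 at an unadjusted p under 0.05), against 22.8% of all genes so tested.

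The same changes were compared under other scalings, since all members carry the offset that the arrays' scaling sets. With poly-A spike-ins 19 members fell (63.3%) and 4 rose (13.3%), where the background over all genes was 34.7% and 13.7%, so that 76.7% of members and 48.4% of all genes changed. With hybridization spike-ins 20 fell (66.7%) and 4 rose (13.3%), where the background was 50.7% and 9.73%, so that 80% of members and 60.4% of all genes changed. The share of falls with hybridization spike-ins lay nearer to its background than under the deposited scaling. Both centrings lower the change of every gene, so they could remove a rise but hardly a fall. The 15 falls under the deposited scaling all passed under both, which is therefore no check of them. The rises of ELOVL6, SC5D, ACLY and INSIG2 also passed under both, at 1.16, 0.30, 0.24 and 0.21 with hybridization spike-ins.

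**Figure D3:**
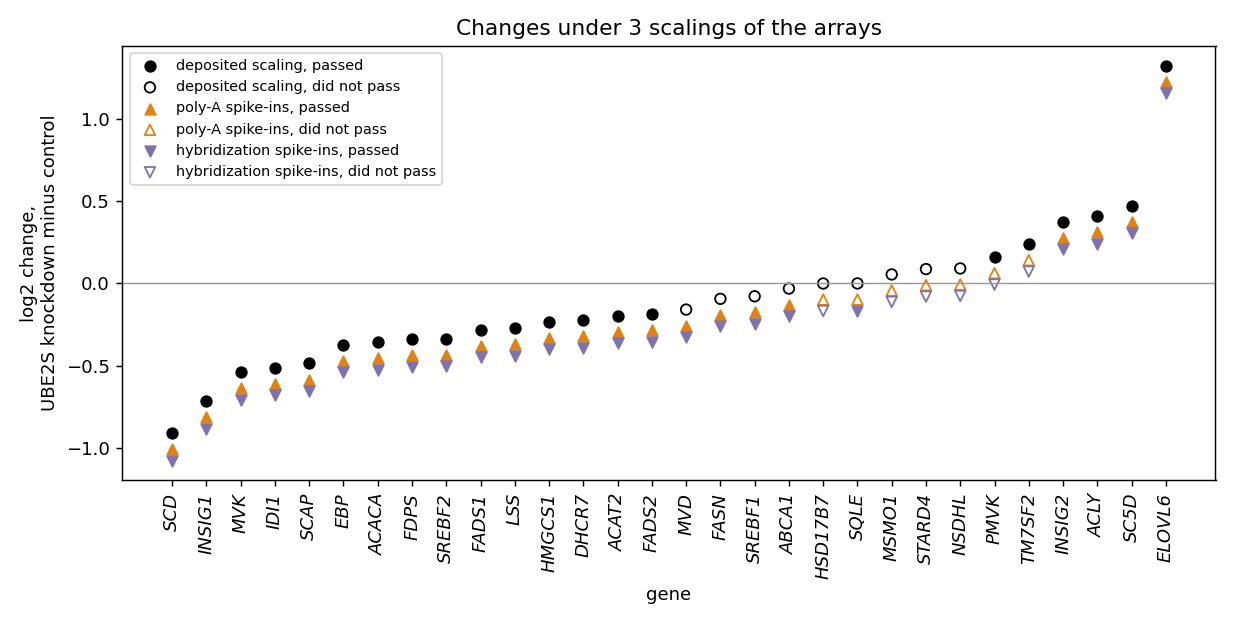
Log2 change, knockdown minus control (vertical axis), of the 30 genes (horizontal axis, ordered by change) under the deposited scaling (black circles), poly-A spike-in centring (orange triangles) and hybridization spike-in centring (purple triangles). Filled symbols passed the test and open ones did not; every gene shifts down together, ELOVL6, SC5D, ACLY and INSIG2 stay above 0 as passing rises, and PMVK reaches 0.

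Other genes of lipid metabolism, in 6 lists of 97 genes with no member among them, were more often higher than lower under the deposited scaling. The lists were also written with earlier results known, so their counts are not an independent contrast with the members. Of 89 measured, 28 rose (31.5%) and 20 fell (22.5%), with a median of 0.054, against the background of 21.4% and 18.6%. Hybridization spike-in centring gave 11 rises (12.4%) and 40 falls (44.9%), against the background of 9.73% and 50.7% over all genes. Poly-A spike-in centring gave 16 rises (18%) and 32 falls (36%), against 13.7% and 34.7%.

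Among genes that process or assist SREBPs, the proteases were higher. Of 12 measured, 5 rose (41.7%) and 3 fell (25%), where the background over all genes was 21.4% and 18.6%. MBTPS2, the intramembrane protease that releases SREBPs, stood at 0.37, 0.37 and 0.48 in knockdown arrays, against -0.47, -0.35 and -0.42 in control arrays, and rose by 0.82 (SE 0.049, adjusted p = 8.06e-06 in limma). MBTPS1, the protease that cuts before it, rose by 0.39 (SE 0.037), and ERLIN2, a scaffold of the endoplasmic reticulum membrane, by 0.26, a rise lost with hybridization spike-in centring (0.096) and with its brightest probe set (0.088). Falls were small, in the NF-Y subunits NFYA (-0.20) and NFYC (-0.20) and in PAQR3 (-0.19), which tethers SCAP at the Golgi. NFYC did not pass without shared probe sets (-0.044), nor NFYA with plain-ID probe sets alone (-0.14, adjusted p = 0.309 in limma).

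Of 10 measured genes of further sterol and isoprenoid branches, which draw on the products of the mevalonate pathway, 5 fell and 0 rose in limma (5 fell and 2 rose at an unadjusted p under 0.05). The falls made up 50%, against 18.6% of all genes, and the background of rises was 21.4%. NUS1, a subunit of the enzyme that makes dolichol for protein glycosylation, stood at -0.34, -0.38 and -0.44 in knockdown arrays, against 0.34, 0.52 and 0.37 in control arrays, and fell by 0.80 (SE 0.056, adjusted p = 1.79e-05 in limma). GGPS1, which makes geranylgeranyl diphosphate, fell by 0.45 (SE 0.041), and PDSS1, which makes the side chain of coenzyme Q, by 0.45 (SE 0.039). With plain-ID probe sets alone PDSS1 stood at -0.096 and did not pass (adjusted p = 0.314 in limma).

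Elongation genes outside the members also split. Of 24 measured genes of fatty acid supply, elongation and activation, 6 rose (25%) and 7 fell (29.2%), where the background was 21.4% and 18.6%. ELOVL4, an elongase of very long chains, stood at 0.75, 0.69 and 0.76 in knockdown arrays, against -0.80, -0.74 and -0.72 in control arrays, and rose by 1.48 (SE 0.040, adjusted p = 2.61e-07 in limma). HACD3, a dehydratase of the elongation cycle, rose by 0.88 (SE 0.033), and FADS3, of the same family as FADS1, by 0.28. DBI, which binds acyl-CoA, fell by 0.56 (SE 0.039), the NADPH-producing malic enzyme ME1 by 0.37, and the elongase ELOVL7 by 0.35. ELOVL7 had 2 of 3 probe sets in the lowest signal class, and FADS3 did not pass with hybridization spike-in centring (0.11).

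Of 18 genes of sterol uptake and transport, 9 rose (50%) and 3 fell (16.7%), where the background was 21.4% and 18.6%. GRAMD1C, a sterol transfer protein of membrane contact sites, rose by 0.96 (SE 0.054), LRP8, a receptor of the lipoprotein receptor family, by 0.72 (SE 0.040), and NPC1, which moves cholesterol out of lysosomes, by 0.58 (SE 0.043). CAV1, the coat protein of cholesterol-rich caveolae, stood at -0.70, -0.82 and -0.63 in knockdown arrays, against 0.65, 0.71 and 0.66 in control arrays, and fell by 1.39 (SE 0.052, adjusted p = 8.86e-07 in limma). TMEM97, a sterol-responsive membrane protein that binds NPC1, fell by 0.68 (SE 0.038), but stood at -0.15 with plain-ID probe sets alone and did not pass (adjusted p = 0.381 in limma). The fall of the lipoprotein receptor SCARB1 (-0.14, adjusted p = 0.0313 in limma) was lost when any of 4 arrays was left out (-0.16 to -0.11).

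Among 11 measured genes of LXRs and oxysterols, 4 rose and 0 fell in limma (5 rose and 0 fell at an unadjusted p under 0.05). The share that changed in either direction was 36.4%, near the background of 40.1%, while the background of rises was 21.4%. In this list ABCG1 (0.075) and MYLIP (-0.0063) were among the genes that did not pass. The LXR target SMPDL3A rose by 0.58 (SE 0.056) and the phospholipid-remodelling enzyme LPCAT3 by 0.26 (SE 0.041), while NR1H3, which encodes an LXR, rose by 0.14, a call lost when any of 5 arrays was left out (0.10 to 0.15). With hybridization spike-in centring LPCAT3 (0.094) did not pass and NR1H3 turned to -0.030. Of 14 glycerolipid genes 4 rose and 2 fell, so that 42.9% changed, near the background of 40.1%. The acyltransferases GPAM and AGPAT2 rose by 0.28 and 0.18 and DGAT1, which closes triglyceride synthesis, by 0.17, and none of the 3 passed with hybridization spike-in centring (0.11, 0.011 and 0.0031). Choline kinase CHKA fell by 0.31 (SE 0.069) and the acyltransferase GPAT3 by 0.19 (SE 0.050), the last lost without knockdown replicate 3 (-0.15) or control replicate 2 (-0.15).

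**Figure D4:**
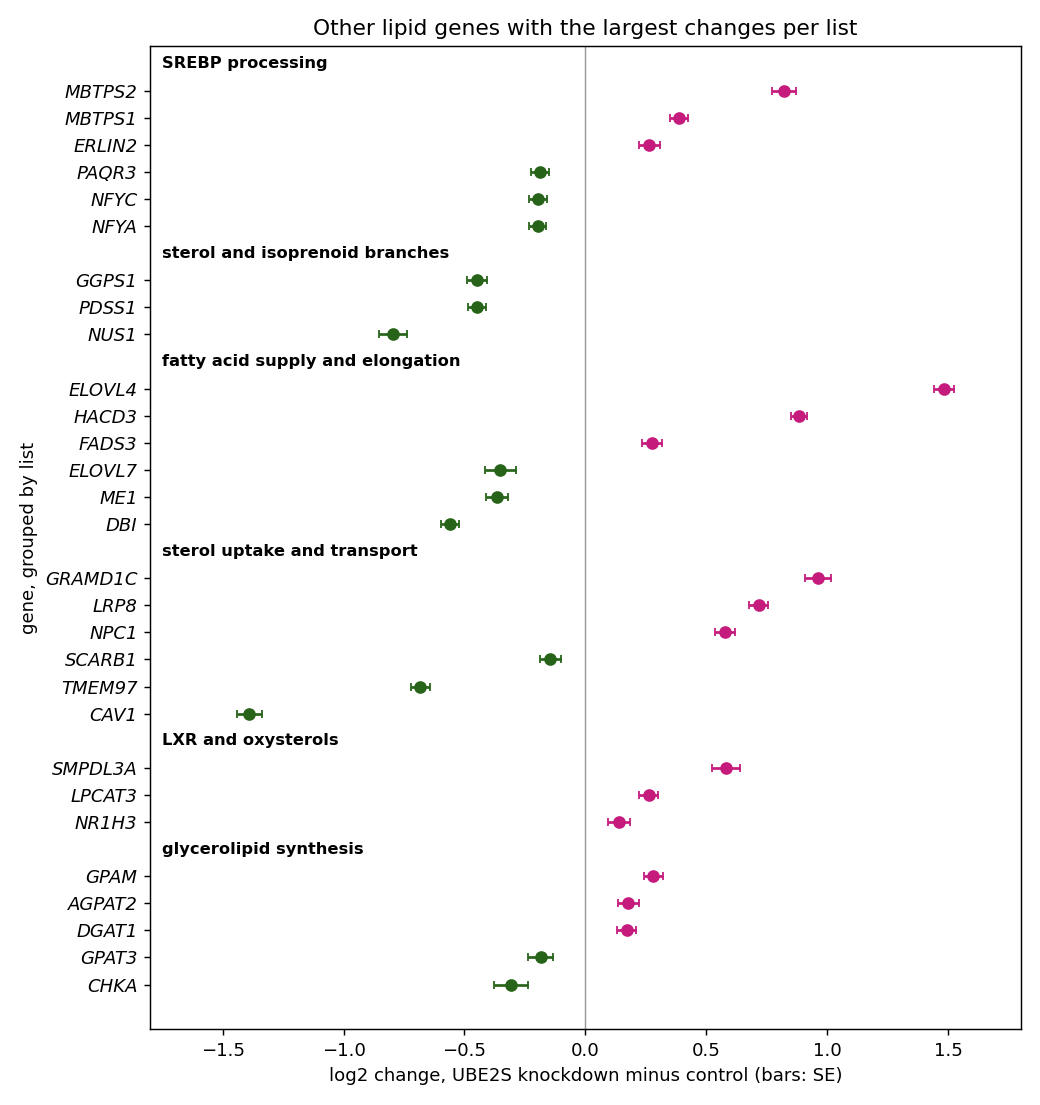
Log2 change, knockdown minus control (horizontal axis, bars are SE), of the genes with the largest passing changes in each of the 6 further lists (vertical axis), rises in magenta and falls in green. ELOVL4 lies farthest to the right at 1.48 and CAV1 farthest to the left at -1.39.

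Within the members, the CCAAT box was present for 12 of 14 genes that fell, 3 of 6 that rose and 5 of 7 that did not pass, and the core for 5, 1 and 1 of them. Members that fell or rose had 1.5 windows per gene on average and those that did not pass 1.0. More windows give more chances of a match, so these counts are not on an equal footing. The genes that fell without a CCAAT box were SCAP and FADS1. Among all measured genes, 43.9% of those that rose, 44.5% of those that fell and 41.1% of those that did not pass had a CCAAT box. The core was found for 8.2%, 6.9% and 8.34% of these genes, in the same order. MVK and NSDHL had 5 boxes each in a single window, the most of any member, and MVK fell while NSDHL did not pass. A match is a run of letters and does not show that a factor binds there.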

How the data were processed

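RNA of 3 knockdown and 3 control A375 cultures was hybridized to Affymetrix arrays, per the labels' protocols. The deposited values are log2 expression per probe set, and RMA, affy and limma are named in the submitters' processing notes, without versions. The log base is taken from RMA. In the deposited values the median of every probe set is 0 (largest absolute median 4.85e-07), so levels cannot be compared. No source used here names the genome build behind the array annotation.

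Of 49395 probe sets, 102 are array controls. Of the others, 44988 list 1 symbol, 1832 several and 2473 none. A gene's value is the mean of its probe sets with that single symbol. Groups were compared with limma 3.58.1 (lmFit, eBayes) in R 4.3.3, with Benjamini-Hochberg adjustment over 18132 genes and a threshold of 0.05. Tables and figures used pandas 2.3.3 and matplotlib 3.10.9. The procedure was tested on simulated data. An exact permutation test of 3 against 3 arrays cannot give a p below 0.1. The signal class comes from the single-precision rounding step of each probe set (tolerance 0.1 step). The number of arrays limits the precision.

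No pairing by replicate number was seen. The deviations of same-numbered arrays correlated at -0.0303, -0.0165 and -0.105, and those of other pairs at -0.0693 to 0.0963. With 3 arrays per group this cannot exclude a pairing. Replicate pairs differed by an SD of 0.125 to 0.144, with at most 140 identical values.

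The members and lists were chosen with earlier results of these data known. Every member is named, with up to 3 genes per direction from each further list, those with the largest change past the threshold. Alternatives were another choice of probe sets, centring on array medians or spike-ins, variance models, array weights, a replicate block and leaving out each array. Leaving out the shared probe sets, whose IDs end in _s_at or _x_at, was chosen after seeing the data.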

Additional observations from a re-analysis of the deposited data

How the results depend on the processing

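The member counts of 6 rises and 15 falls were compared under each alternative. Leaving out each array in turn gave 6 to 6 rises and 15 to 16 falls among members, a member median of -0.189 to -0.151, 23 to 28 rises and 15 to 19 falls among the further lipid genes, and 6331 to 6637 changed genes in all. The member median was -0.20 with the most variable probe set of each gene, -0.34 with hybridization spike-ins, -0.27 with poly-A spike-ins and -0.094 over the 25 members measured without shared probe sets. With hybridization spike-ins the further genes gave 11 rises and 40 falls and all genes 10960 changes, and with poly-A spike-ins the further genes gave 16 rises and 32 falls. PMVK (-0.0066), SQLE (-0.17) and NR1H3 (-0.030) turned below 0 with hybridization spike-ins. So did MSMO1 (-0.11), NSDHL (-0.076) and STARD4 (-0.080), which passed neither there nor under the deposited scaling. The cause was not tested. Restricting the array to probe sets with plain IDs left 3 members, SQLE, MSMO1 and ABCA1, with 0 rises and 0 falls in limma, 0 at an unadjusted p under 0.05 and a median of -0.057. It left 37 further genes with 7 rises and 4 falls (29.7% changed, against 53.9% of 89) and 8354 genes with 1905 changes (22.8%, against 40.1%), and TMEM97, PDSS1 and NFYA lost their calls. The cause was not tested. With the replicate number as a block, 6 members rose and 16 fell, MVD being added (-0.16, adjusted p = 0.0489 in limma), and SCARB1 (-0.14) and NR1H3 (0.14) no longer passed. The block changed no other call among the named genes. Calls of all 59 named genes were the same with array medians centred, with a robust variance model and without the lowest signal class.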
